A study of Homo sapiens with 18 samples.

Results

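The genes that encode the proteins of the cytosolic ribosome were followed in 3 human chronic lymphocytic leukemia (CLL) cell lines with and without a Toll-like receptor 9 (TLR9) agonist. They were chosen by symbol alone, as the RPL and RPS genes with a plain number (with or without a final A or X) together with RPLP0, RPLP1, RPLP2 and RPSA. This gave 77 of the 56609 genes in the count table, 46 of the large subunit and 31 of the small subunit. Names in RPL belong to the large and names in RPS to the small subunit. All 77 passed the filter of at least 10 counts summed over the libraries, which left 31872 genes to test.

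Each ribosome holds 1 copy of nearly every one of these proteins, and the stalk proteins RPLP1 and RPLP2 are an exception. Their mRNAs are among the most abundant of a dividing cell. Most begin with a short run of pyrimidines at the 5′ end, the terminal oligopyrimidine (TOP) motif, through which the mTOR pathway sets how much of the mRNA is translated. In B cells, TLR9 recognises unmethylated CpG DNA, and its ligands are known to promote growth and proliferation, for which ribosomes are needed.

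The lines were HG3, MEC2 and PCL12, all described as positive for Epstein-Barr virus, with mutated immunoglobulin heavy variable genes in MEC2 and unmutated ones in HG3 and PCL12. Cells of each line were left unstimulated or received the class B oligonucleotide CpG-ODN2006 at 2.5 μg/mL for 4 h, with 3 replicates in each of the 6 groups. The 18 libraries held between 20382943 and 67308932 counts. Each is a single established line, so a difference between lines is not one between classes of CLL. Nothing states that the replicates were separate cultures, and p-values measure the spread between these samples, which may be technical. All 10 B cell markers, among them MS4A1 and CD79A, exceeded a level of 1 CPM (counts scaled to a common library size) in every library, with a summed level of 3160 to 5650 CPM. The 7 monocyte markers summed to at most 3.88 CPM, the 4 NK cell markers to at most 10.9 CPM and the 6 T cell markers to 35.1 to 129 CPM, nearly all of it TRAC.

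Several libraries stood apart. Unstimulated HG3 replicate 2 had 20.2% of its counts on mitochondrially encoded genes and CpG-stimulated MEC2 replicate 2 had 19.7%, against 2.82% to 9.28% in the other 16 libraries. In both, the ribosomal protein genes also lay away from the other replicates of the group, as described next. In addition, 45 genes abundant in MEC2 and scarce in PCL12 replicate 1 were at 29.1% to 31.3% of their MEC2 level in both libraries of PCL12 replicates 2 and 3, and at 2.26% and 2.36% in those of replicate 1, on which the genes had been selected. The source of these counts in the 4 PCL12 libraries was not tested, and the main PCL12 results are given also without these 4 libraries, which leaves 1 PCL12 library per condition. The spread in those fits comes from the other groups, and the single library is assumed to vary like them.

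The 5′ ends of the members that the line comparisons turned on, and of 2 others with unusual levels, are shown to make the shared start visible. Each window holds 15 bases before and 15 bases from the annotated first base on, from RefSeq on GRCh38.p14, and capitals mark a run of at least 5 pyrimidines that begins with C and spans that base.
RPS18: cgcgtcacttccgCTCTCTCTTCCacagga
RPL14: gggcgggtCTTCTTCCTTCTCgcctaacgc
RPS25: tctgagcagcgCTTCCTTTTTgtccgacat
RPL26: aagcagcgtgtagttCTCTTCCCTTTTgcg
RPS10: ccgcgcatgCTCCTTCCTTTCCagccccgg
RPS26: gagacacataacctcgattttcttccgcca
They lie at chr6:33272060-33272089 (plus strand) for RPS18, chr3:40457324-40457353 (plus) for RPL14, chr11:119018329-119018358 (minus) for RPS25, chr17:8383179-8383208 (minus) for RPL26, chr6:34426055-34426084 (minus) for RPS10 and chr12:56041903-56041932 (plus) for RPS26. RPS18, RPL14, RPS25, RPL26 and RPS10 began within such a run, and the RPS26 window held none at its annotated start.

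A start entry was found for 62 of the 77 members. In the 5 bases before and the 15 bases from the start on, at least one of 3 short TOP-like strings, which may overlap one another, stood on the sense strand of 49 members, or 79.0%, against 8.79% of 27305 genes with an entry. By string, CTTTC was found in 48.4% of members and 3.66% of all genes, CTTTT in 24.2% and 2.83%, and CTCTT in 37.1% and 3.35%. On the opposite strand none of the 62 members held any of the 3, against 6.17% of all genes. In the 300 bases around the start, on either strand, ACTTCCG, the letters of an ETS-type site, stood in 30.6% of members and 8.18% of all genes, and AAGATGGC, the letters of a YY1-type site, in 9.68% and 3.52%. These are matches of letters only. RPL14 held none of the 3 strings, although its window carried a run of 13 pyrimidines.

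Together the 77 genes took 5.90% to 8.14% of all counts in 16 of the 18 libraries. The remaining 2 were unstimulated HG3 replicate 2, with 10.9%, and CpG MEC2 replicate 2, with 2.88%. By group the share was 8.58% ± 2.11 (SD, n = 3) in unstimulated HG3 and 7.71% ± 0.578 with CpG. MEC2 held 7.38% ± 0.280 unstimulated and 5.93% ± 2.64 with CpG, and PCL12 held 7.06% ± 1.09 and 6.79% ± 0.245. The CpG values of MEC2 were 7.48%, 2.88% and 7.44%, so that the lower mean came from 1 library.

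**Figure D1:**
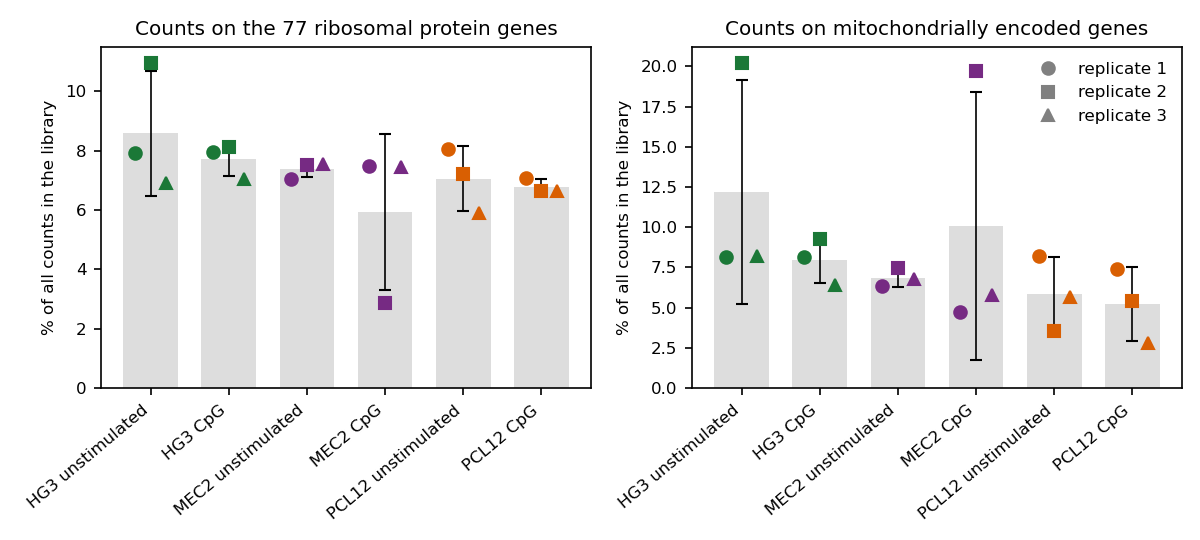
The left panel plots the percentage of each library's counts on the 77 ribosomal protein genes and the right panel that on mitochondrially encoded genes, with grey bars for group means, error bars for the SD over 3 libraries and marker shapes for replicates. Replicate 2 of unstimulated HG3 (10.9% and 20.2%) and replicate 2 of CpG MEC2 (2.88% and 19.7%) are both high on the right and lie on opposite sides on the left.

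Large and small subunit genes moved together. The ratio of counts on large subunit genes to those on small subunit genes was 1.60 to 1.71 in 17 libraries and 1.91 in CpG MEC2 replicate 2. Relative to the mean of the other 2 replicates of its group, unstimulated HG3 replicate 2 was higher for 68 and lower for 9 members, with a median log2 difference of 0.66. CpG MEC2 replicate 2 was higher for 3 and lower for 74, with a median of -1.29. The shifts were uneven within each library. In HG3 replicate 2 RPL14 lay 1.27 above the others on the log2 scale, while RPLP0, the stalk base protein often used as a reference gene, lay 0.64 below. In MEC2 replicate 2 RPS3A, a small subunit protein, lay 2.47 below and RPL11, a large subunit protein that binds MDM2, 0.31 below. RPS10, RPL36A and RPL17 were higher in both of these libraries. The part of RNA quality in these shifts was not tested.

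**Figure D2:**
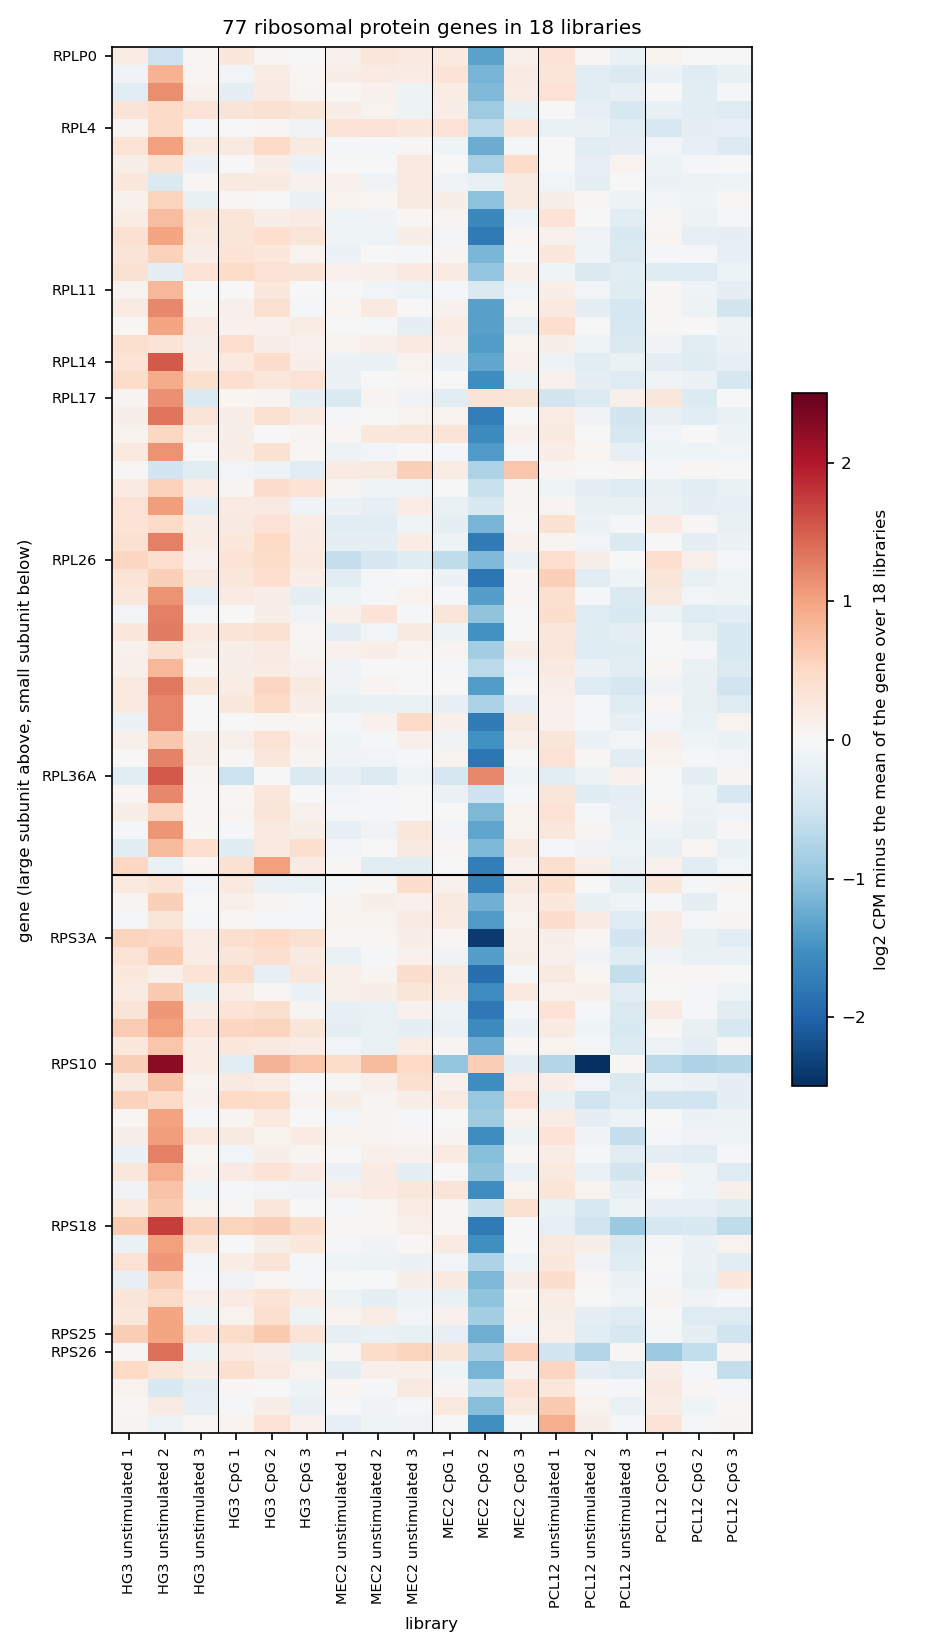
Each row is 1 of the 77 genes, large subunit above the line and small subunit below, each column 1 of 18 libraries, and colour gives log2 CPM minus the gene's mean over the libraries. Unstimulated HG3 replicate 2 is mostly red (68 of 77 genes above its group) and CpG MEC2 replicate 2 mostly blue (74 of 77 below its group), and RPS10 and RPL36A depart from the column pattern. Only some of the genes described in the text are labelled.

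Levels spanned a wide range. The highest mean levels over the 18 libraries were those of RPL4, a protein that lines the exit tunnel, with 2747 CPM, RPL13A with 2593 CPM and RPS2, next to the mRNA entry site, with 2563 CPM, and the median member had 844 CPM. Divided by the length of the canonical transcript, the median was 996 CPM per kb and the highest were RPS2 with 2710, RPS18 with 2310 and RPL13A with 2300 CPM per kb. The labels name a library kit that reads one end of each transcript, and for such libraries the division by length would put long genes too low. At the other end stood RPS10 with 1.47 CPM, RPL36A with 4.33 CPM and RPL17 with 6.06 CPM, all well below the next, RPL39, with 28.7 CPM. RPL36AL, a paralogue of RPL36A, measured 109 to 348 CPM over the libraries. RPS10, RPL36A and RPL17 encode core proteins of the ribosome. Their exons are shared with annotated readthrough genes on the same strand, over 84.0% of the canonical exonic bases for RPS10 (RPS10-NUDT3), 43.8% for RPL36A (RPL36A-HNRNPH2) and 96.9% for RPL17 (RPL17-C18orf32). All 3 readthrough genes were at 0 counts in every library. Of the 77 members 71 shared under 10% of their exonic bases in this way. RPS10 was also the only member with fewer counts than its processed pseudogenes, 852 against 2969, of which 2812 fell on RPS10P7. RPS10 ranged from 0.143 to 5.73 CPM over the libraries. Values of these 3 genes are uncertain as measures of their mRNA.

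Across all 18 libraries the median member followed the median of the 77 genes with a Pearson correlation of 0.91, and across the 16 libraries without the 2 mitochondrially rich ones with 0.76. This describes 18 libraries that share their scaling, with no test. Relative to that median the steadiest were RPS9 and RPL10, with an SD of 0.09 each on the log2 scale. The most variable were RPS10 with 1.00, RPL36A with 0.69, RPL17 with 0.48, RPS26 with 0.45, and RPS18 and RPL21 with 0.44 each. Without the 2 libraries RPS10 (0.85), RPS26 (0.43), RPS18 (0.37) and RPL26 (0.35) had the highest SD.

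The first comparison asked how the unstimulated lines differ. With all 18 libraries, most estimates for the ribosomal protein genes were lower in MEC2 and in PCL12 than in HG3. Few single genes passed the test, and the size of the shift leaned on 1 HG3 library, as described below. In MEC2 against HG3, 71 of 77 estimates lay below 0, with a median log2 difference of -0.41 against 0 over all genes tested, and 3 members were called lower and 0 higher at an adjusted p under 0.05 by the quasi-likelihood test of edgeR, adjusted by the Benjamini-Hochberg method. Over all genes 4.97% were called lower and 4.81% higher, so the share of members called lower was near the background. At an unadjusted p under 0.05, 13 members were lower and 1 higher, and 21.7% of all genes passed in either direction. DESeq2 and limma-voom each called the same 3 members, and the background given is that of edgeR only.

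In PCL12 against HG3, which uses the same HG3 libraries, 71 of 77 estimates again lay below 0 with a median of -0.47, and 3 members were called lower and 0 higher. The background was 4.57% lower and 4.87% higher. At an unadjusted p under 0.05, 23 members were lower and 0 higher, beside 21.8% of all genes in either direction. DESeq2 and limma-voom called 4 members each, and the background given is again that of edgeR only.

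Both medians leaned on HG3 replicate 2. Without the 2 mitochondrially rich libraries, the median was -0.12 in MEC2 against HG3, with 53 members below 0, and -0.19 in PCL12 against HG3, with 63 below 0. Among these 16 libraries 3 members were called lower in MEC2 (5.35% of all genes, and 4.32% higher) and 7 in PCL12 (5.27% of all genes, and 4.71% higher). Without PCL12 replicates 2 and 3, which left 1 unstimulated PCL12 library, the median of PCL12 against HG3 was -0.19. With libraries scaled to the members themselves, 0 members were called in either comparison. That scaling removes a shift shared by the members by construction, so it cannot show whether there is one.

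**Figure D3:**
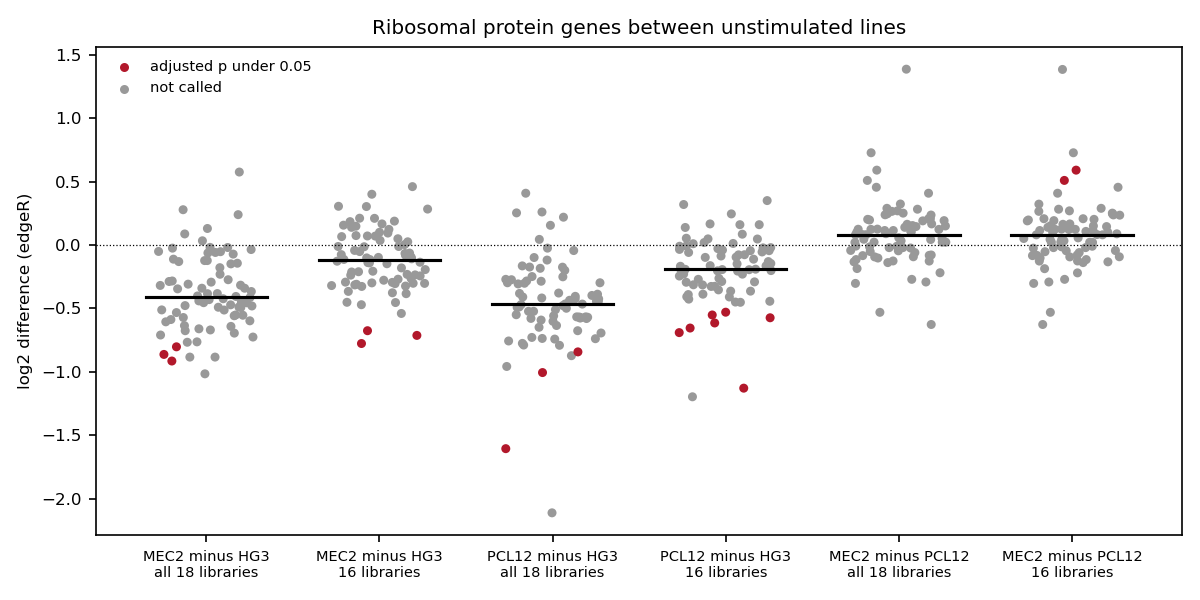
Each point is 1 of 77 genes, the vertical axis is the edgeR log2 difference between unstimulated lines, bars are medians, and each comparison is shown with all 18 libraries and with the 16 that leave out the mitochondrially rich ones. Medians against HG3 move from -0.41 to -0.12 for MEC2 and from -0.47 to -0.19 for PCL12, and red points are genes with an adjusted p under 0.05.

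RPS18, a protein of the head of the small subunit (chr6:33272075-33276511, plus strand), gave the clearest difference. Its levels were 1754, 3699 and 1649 CPM in unstimulated HG3, 964, 784 and 585 CPM in PCL12, and 1136, 1157 and 1219 CPM in MEC2. The 3 lines did not overlap, with HG3 highest and PCL12 lowest. PCL12 lay below HG3 by a log2 difference of -1.61 (SE 0.35, edgeR adjusted p = 0.00273), and the call held when any 1 of the 18 libraries was left out, with an adjusted p of at most 0.0411. Without the 2 mitochondrially rich libraries the difference was -1.13 (SE 0.18, edgeR adjusted p = 0.000169). Without PCL12 replicates 2 and 3 it was -1.28 (edgeR adjusted p = 0.311), and scaled to the members -1.10 (edgeR adjusted p = 0.0525). MEC2 against HG3 gave -1.02 (SE 0.35), which did not pass (edgeR adjusted p = 0.0652).

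RPS25, a small subunit protein known for its part in initiation at internal ribosome entry sites (chr11:119015712-119018691, minus strand), was called in both comparisons. It measured 999, 1291 and 823 CPM in HG3, 562, 578 and 571 CPM in MEC2, and 710, 532 and 494 CPM in PCL12. All HG3 libraries lay above all others. The log2 difference was -0.86 (SE 0.27, edgeR adjusted p = 0.0401) in MEC2 and -0.84 (SE 0.27, edgeR adjusted p = 0.0469) in PCL12. Both calls were also made in the 16 libraries (edgeR adjusted p = 0.0206 and 0.0247). They were lost, for example, without unstimulated HG3 replicate 2 in MEC2 (edgeR adjusted p = 0.159) and without unstimulated PCL12 replicate 3 in PCL12 (edgeR adjusted p = 0.201). Without PCL12 replicates 2 and 3 the PCL12 difference was -0.53 (edgeR adjusted p = 0.695).

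RPL26, a large subunit protein that also binds p53 mRNA (chr17:8377516-8383213, minus strand), was lowest in MEC2. Its levels were 139, 156 and 170 CPM in MEC2, 305, 280 and 226 CPM in HG3, and 280, 232 and 207 CPM in PCL12. MEC2 overlapped neither line. It was lower than HG3 by a log2 difference of -0.80 (SE 0.24, edgeR adjusted p = 0.0333), and against PCL12 the value was -0.63 (SE 0.24, edgeR adjusted p = 0.274), or -0.87 without PCL12 replicates 2 and 3 (edgeR adjusted p = 0.392). In the 16 libraries the call was made (-0.78, edgeR adjusted p = 0.0135), and it was lost, for example, without unstimulated MEC2 replicate 1 (edgeR adjusted p = 0.161). RPL26 shares 65.3% of its canonical exonic bases with an overlapping gene on the same strand.

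RPL14, a large subunit protein (chr3:40457292-40468587, plus strand), measured 1015, 2325 and 912 CPM in HG3, 734, 667 and 715 CPM in PCL12, and 723, 722 and 859 CPM in MEC2. HG3 overlapped neither line, and its replicate 2 stood far above the others. PCL12 was lower by -1.01 (SE 0.32, edgeR adjusted p = 0.0429), but without HG3 replicate 2 the difference was -0.42 (edgeR adjusted p = 0.409), and without PCL12 replicates 2 and 3 it was -0.93 (edgeR adjusted p = 0.498).

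**Figure D4:**
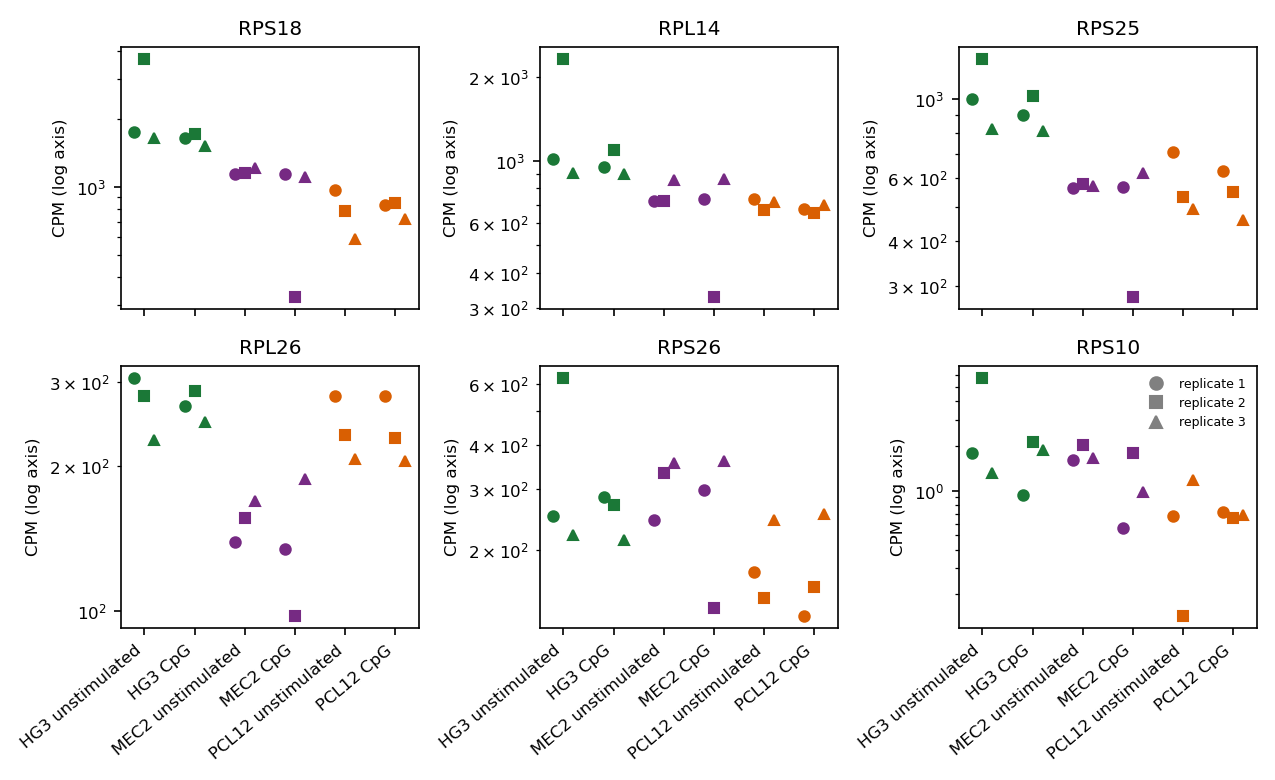
CPM on a log axis in each library for RPS18, RPL14, RPS25, RPL26, RPS26 and RPS10, by group, with marker shapes for replicates. Unstimulated HG3 lies above the other unstimulated lines for RPS18 and RPS25, MEC2 lies lowest for RPL26, and the square of replicate 2 stands high in unstimulated HG3 and low in CpG MEC2 for the first 5 genes except RPL26 in HG3.

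In the 16 libraries the members additionally called lower in PCL12 than in HG3 included RPS12, a small subunit protein (-0.69, SE 0.18, edgeR adjusted p = 0.0153), RPL10A (edgeR adjusted p = 0.0106), RPL15 (-0.55) and RPL3 (-0.53), while RPL14 was no longer called (-0.45, edgeR adjusted p = 0.0852).

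The last of these comparisons set MEC2 against PCL12. No member was called by edgeR, DESeq2 or limma-voom (edgeR background 0.524% higher and 1.53% lower). At an unadjusted p under 0.05 edgeR gave 0 higher and 1 lower, beside 11% of all genes in either direction. DESeq2 and limma-voom gave 2 higher and 1 lower each at that p. The median log2 difference was 0.08, with 49 members above 0. The smallest p-values belonged to RPL26 (above), RPL4 with 0.51 (edgeR adjusted p = 0.470) and RPS26 with 0.73 (edgeR adjusted p = 0.475). RPL4 measured 3388, 3440 and 3241 CPM in MEC2 and 2396, 2443 and 2237 CPM in PCL12, without overlap. Without the 2 mitochondrially rich libraries, which belong to neither group, the spread was smaller and RPL4 (0.51, edgeR adjusted p = 0.0321) and RPS18 (0.59, edgeR adjusted p = 0.0475) were called higher in MEC2, against 1.03% of all genes higher and 2.37% lower. Without PCL12 replicates 2 and 3 the median over the members was -0.19, with 0.46 for RPL4, 0.26 for RPS18 and 0.83 for RPS26 (edgeR adjusted p at least 0.731). Then edgeR called 0 members, with 0 higher and 2 lower at an unadjusted p under 0.05, against 0.944% of all genes called higher and 1.04% lower.

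Other members with known roles in disease did not pass in these comparisons with all 18 libraries. RPS19, RPS26, RPL5 and RPL11 are mutated in Diamond-Blackfan anemia, and RPL5 and RPL11 restrain MDM2. In MEC2 against HG3 their log2 differences were -0.49, -0.23, -0.60 and -0.41, and in PCL12 against HG3 -0.44, -0.96, -0.74 and -0.41. The adjusted p-values of edgeR were at least 0.104. RPS15, which is recurrently mutated in CLL, measured 616, 1629 and 698 CPM in HG3, 676, 736 and 735 CPM in MEC2, and 771, 654 and 559 CPM in PCL12, and the lines overlapped. RPS14, lost in a form of myelodysplastic syndrome, gave -0.48 and -0.60. RPL10 and RPL22, mutated in T cell leukemia, gave -0.42 and -0.38 in MEC2 and -0.41 and -0.55 in PCL12. The X-linked RPS4X gave -0.44 and -0.49. RPLP0 and RPSA, also known as the laminin receptor, gave 0.28 and -0.02 in MEC2 and 0.16 and -0.10 in PCL12.

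The second comparison asked what CpG did within each line. No ribosomal protein gene was called in any line. In HG3 edgeR called 0 members, and 0 had an unadjusted p under 0.05. DESeq2 also called 0, with 1 lower and 0 higher at that p, and limma-voom 0, with 0. The background of calls by edgeR was 0.00314% of all genes higher and 0% lower, and 3.73% of all genes passed the unadjusted p in edgeR, 2.71% in DESeq2 and 3.41% in limma-voom. In MEC2 edgeR called 0 members with 0 at an unadjusted p under 0.05, DESeq2 0 with 0, and limma-voom 0 with 10 lower (13.0% of the members, beside 2.91% of all genes at that p in either direction). Here edgeR called 0.00314% of all genes higher and 0% lower, and 2.46% passed the unadjusted p in edgeR and 1.93% in DESeq2. In PCL12 edgeR, DESeq2 and limma-voom called 0 members with 0 at an unadjusted p under 0.05. Of all genes edgeR called 0% in each direction, and 2.09%, 0.999% and 3.31% passed the unadjusted p in the 3 tools.

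The medians lay slightly below 0 in the fit, at -0.23 in HG3, -0.26 in MEC2 and -0.07 in PCL12. In each line this rested on 1 library. Without the 2 mitochondrially rich libraries the medians were 0.028 in HG3 and 0.025 in MEC2. In PCL12 the median was 0.076 without unstimulated replicate 1, with 66 members above 0, and -0.22 without replicates 2 and 3, with 72 below 0. The members with the smallest p in HG3 were RPL36A (-0.95), RPL14 (-0.53) and RPS18 (-0.54). In MEC2 they included RPS14 (-0.44), and in PCL12 they were RPS29 (-0.26), RPS28 (-0.20) and RPL28 (-0.21). Each had an edgeR adjusted p of 1. RPS18 measured 1645, 1714 and 1518 CPM in CpG-stimulated HG3, which overlapped its unstimulated levels. RPS14 measured 774, 254 and 682 CPM in CpG-stimulated MEC2 and 785, 775 and 760 CPM in unstimulated cells. RPS29 measured 336, 261 and 277 CPM with CpG and 498, 292 and 258 CPM without in PCL12. In each of these the 2 groups overlapped.

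Compared pair by pair, CpG over unstimulated with the same replicate number, the pattern was the same. The median log2 ratio over the 77 genes was -0.03, -0.56 and -0.01 in the 3 pairs of HG3, 0.07, -1.24 and -0.001 in those of MEC2 and -0.22, -0.03 and 0.10 in those of PCL12. In HG3 pair 2, 69 members were below 0, and in MEC2 pair 2, 75. These pairs contain the mitochondrially rich libraries. Of the 4 other pairs of these lines, those of HG3 had 45 and 43 of 77 members below 0 and MEC2 pair 3 had 39. MEC2 pair 1 leaned the other way, with 61 members above 0 and 16 below. PCL12 pair 1, the pair with few counts of MEC2 genes, had 72 below 0, while pairs 2 and 3 had 51 and 27 below 0.

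**Figure D5:**
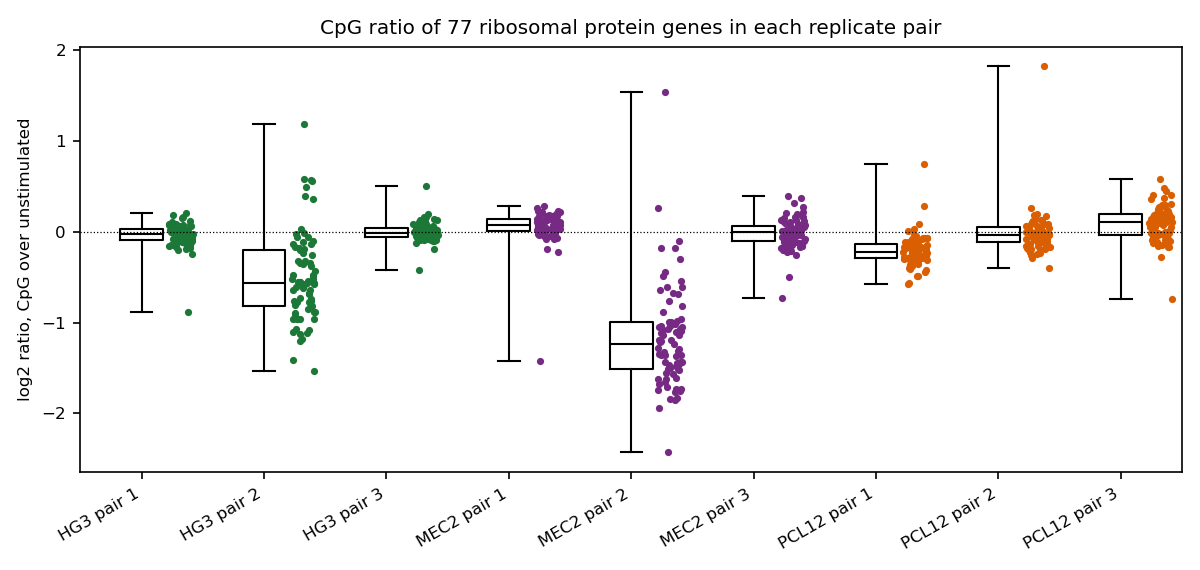
The log2 ratio of CpG over unstimulated for each of 77 genes (points) in each replicate pair, with boxes for the quartiles and whiskers for the range. The boxes lie near 0 except in HG3 pair 2 (median -0.56), MEC2 pair 2 (-1.24) and, by less, PCL12 pair 1 (-0.22).

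Lower with CpG in all 3 pairs of a line were 21 members in HG3, 7 in MEC2 and 6 in PCL12. Higher in all 3 were RPS29 in HG3 and RPL17 in MEC2. RPL14, RPL23 and RPL34 were each lower in all pairs of 2 lines, and no member was so in all 3 lines. Such agreement was not counted over all genes, so these numbers cannot be set against a background. The pairs include HG3 pair 2 and MEC2 pair 2, with 69 and 75 members below 0. With the replicate number as a block, edgeR called 0 members in each line, with 1, 28 and 0 lower at an unadjusted p under 0.05 in HG3, MEC2 and PCL12. In that fit 3.59%, 3.41% and 1.69% of all genes passed this p in either direction, and the 28 were 36.4% of the members. The same block without pair 2 of HG3 and MEC2 gave 0, 0 and 1 lower and 0, 2 and 0 higher, beside 2.92%, 4.52% and 4.88% of all genes in either direction.

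How small a CpG effect the data allow is shown by the 95% intervals of the log2 differences, which are not adjusted for the number of genes. They lay wholly between -1 and 1 for 57 members in HG3, 58 in MEC2 and 74 in PCL12. Without the 2 mitochondrially rich libraries this held for 75, 76 and 76 members, and RPS10 was outside in each line. The median lower and upper bounds over the members were then -0.36 and 0.41 (HG3), -0.35 and 0.40 (MEC2), and -0.40 and 0.27 (PCL12).

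The CpG effects were also compared between lines. By edgeR 0 members differed between MEC2 and HG3 (background 0% in each direction), PCL12 and HG3 (0% higher, 0.00314% lower) or MEC2 and PCL12 (0% in each direction). At an unadjusted p under 0.05 the counts were 1 higher, 0 and 0, the 1 being RPL36A in MEC2 against HG3 (1.58, SE 0.71, edgeR adjusted p = 1). Of all genes 4.10%, 4.16% and 3.23% passed that p. DESeq2 gave 1 higher, 0 and 0 members, and limma-voom 0, 0 and 1 lower. With the replicate block edgeR called 0 members, and 4, 1 and 6 were lower at the unadjusted p, or 5.19%, 1.30% and 7.79% of the members beside 3.53%, 2.39% and 1.36% of all genes. The block without pair 2 of HG3 and MEC2 gave 0 and 0 for the first 2 differences, and 4 higher and 1 lower for MEC2 against PCL12, beside 3.44%, 3.56% and 2.63% of all genes. RPL36A measured 3.28, 11.7 and 4.16 CPM in unstimulated HG3 and 2.96, 9.26 and 3.71 CPM in CpG MEC2, the high value of each being the mitochondrially rich library.

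Some genes related to the ribosomal proteins differed between the lines by more. The background for the counts below was 4.81% higher and 4.97% lower in MEC2 against HG3 and 4.87% higher and 4.57% lower in PCL12 against HG3. Among the 8 paralogues of ribosomal protein genes, 1 was higher and 2 lower in MEC2 than in HG3, and 1 higher and 3 lower in PCL12. RPL39L, a paralogue best known from the testis, measured 2.88, 1.65 and 1.53 CPM in HG3, 9.71, 11.1 and 9.37 CPM in MEC2, and 12.3, 9.88 and 11.98 CPM in PCL12. It was higher by a log2 difference of 2.31 (SE 0.40, edgeR adjusted p = 0.000228) in MEC2 and 2.49 (SE 0.40, edgeR adjusted p = 9.7e-05) in PCL12, with no overlap. RPL39 itself gave -0.32 and -0.47. RPS27L, a p53 target, measured 85.1, 97.8 and 60.1 CPM in HG3, 31.3, 30.1 and 28.5 CPM in MEC2, and 35.7, 24.2 and 26.1 CPM in PCL12. It was lower by -1.44 (SE 0.26, edgeR adjusted p = 0.000302) and -1.50 (SE 0.26, edgeR adjusted p = 0.000189). RPL22L1, whose level RPL22 is known to restrain, was lower by -1.74 (edgeR adjusted p = 0.00403) and -1.28 (edgeR adjusted p = 0.0354), and RPL7L1 by -0.95 in PCL12 (edgeR adjusted p = 0.00536). Without PCL12 replicates 2 and 3 the difference of RPL39L in PCL12 was 2.62 (edgeR adjusted p = 0.00624, for 1 PCL12 library). RPS27L (-1.16, edgeR adjusted p = 0.11), RPL22L1 (-1.43, edgeR adjusted p = 0.32) and RPL7L1 (-1.23, edgeR adjusted p = 0.0744) were not called, at a background of 2.35% higher and 2.01% lower. Without the 2 mitochondrially rich libraries RPL39L, RPS27L and, in PCL12, RPL7L1 were called as before (edgeR adjusted p at most 0.000941), and RPL22L1 was called in MEC2 (-1.41, edgeR adjusted p = 0.0184) but not in PCL12 (-0.95, edgeR adjusted p = 0.123).

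Of the 7 snoRNA host genes, whose transcripts are also of the TOP class, GAS5 was called lower in both lines (-0.80, edgeR adjusted p = 0.0265, and -0.97, edgeR adjusted p = 0.00658). Of the 14 tested translation factors and other TOP mRNAs, 0 were called in MEC2, and EIF3E, a subunit of the initiation factor eIF3, was lower in PCL12 (-0.80, edgeR adjusted p = 0.0324). FAU, whose ribosomal protein is made as a fusion to a ubiquitin-like protein, and RACK1, which binds the small subunit, were not called. Of the 78 mitochondrial ribosomal protein genes, 1 was higher (MRPS27, 0.75, edgeR adjusted p = 0.0314) and 1 lower (MRPL14, -0.85, edgeR adjusted p = 0.0311) in MEC2, and 5 (6.41%, near the background) were lower in PCL12, led by MRPL14 (-1.41, edgeR adjusted p = 0.000405). Without PCL12 replicates 2 and 3 the values in PCL12 were -1.20 for GAS5 (edgeR adjusted p = 0.116), -0.85 for EIF3E (edgeR adjusted p = 0.365) and -1.40 for MRPL14 (edgeR adjusted p = 0.0754), none called. GAS5 measured 316, 486 and 288 CPM in unstimulated HG3, with the mitochondrially rich replicate 2 highest. Without the 2 such libraries GAS5 gave -0.53 in MEC2 (edgeR adjusted p = 0.0698) and -0.70 in PCL12 (edgeR adjusted p = 0.0134), and MRPL14 gave -0.63 in MEC2 (edgeR adjusted p = 0.0877), while MRPS27 in MEC2 (edgeR adjusted p = 0.0475) and EIF3E and MRPL14 in PCL12 (edgeR adjusted p = 0.0107 and 0.00105) were called. The median of the mitochondrial ribosomal protein genes was -0.07 in MEC2 and 0.02 in PCL12. Of 951 ribosomal protein pseudogenes in the table, 505 were tested, and 1 was higher and 2 lower in MEC2, and 2 higher and 1 lower in PCL12, or 0.198% to 0.396% in each direction. In none of these lists was a gene called between CpG-stimulated and unstimulated cells of a line by edgeR.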

How the data were processed

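RNA was sequenced from 18 samples, 3 replicates of each of 6 groups. The authors deposited raw counts per gene symbol. The submitters' processing notes name FastQC, MultiQC, Trimmomatic, STAR, featureCounts and hg38, while versions, annotation, strand setting and the handling of reads that map to several places are not given in the sources used here. The labels name a Lexogen QuantSeq kit and the study's methods a stranded reverse protocol. Reads shared between a member and its pseudogenes, or lying in exons of 2 genes, may be left out of the counts by such pipelines, which bears on RPS10, RPL36A and RPL17.

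Genes with at least 10 counts in all were fitted together, over the 6 groups, with edgeR 4.0.16 (TMM scaling, quasi-likelihood test, Benjamini-Hochberg adjustment over 31872 genes, call at an adjusted p under 0.05) in R 4.3.3. CPM values use TMM-scaled totals, and per-pair ratios a prior count of 2. The cell type markers, the genes abundant in MEC2 and the CPM of 3 counts use library totals without TMM scaling. The script was tested on simulated data. Depth ranged from 20382943 to 67308932 counts, where 3 counts equal 0.0446 to 0.147 CPM. Intervals are at 95%. Exon overlap and lengths came from the GENCODE annotation of hg38, start sequences from RefSeq. Figures used matplotlib 3.10.9 in Python 3.11.15.

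Members and lists were chosen with earlier results of these data known. The text names up to 10 called members per direction and comparison of unstimulated lines, up to 5 per CpG contrast, the 3 with the smallest p where fewer than 3 were called, the 3 highest and 3 lowest, and a set of disease-linked members. From other lists it names up to 4 called genes each. Some genes that these rules select are not reported here.

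The study's design text pairs 1 stimulated with 1 unstimulated sample in each replicate series. The deviations of paired samples correlated by 0.06 to 0.20 in HG3, -0.08 to 0.33 in MEC2 and 0.15 to 0.22 in PCL12. Alternatives were DESeq2 1.42.0, limma-voom (limma 3.58.1), other scalings and filters, the replicate block, and libraries left out. Scaling to the members, and the block without pair 2 of HG3 and MEC2, were added after seeing the data.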

Additional observations from a re-analysis of the deposited data

How the results depend on the processing

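Called members numbered 3 in MEC2 against HG3. The number was 0 with library totals as scaling, 0 without PCL12 replicates 2 and 3, 0 with scaling to the members and 5 with no filter, and it ranged from 0 (for example without unstimulated HG3 replicate 2) to 7 (9.09% of the members, without unstimulated HG3 replicate 3, beside 4.18% of all genes lower) when single libraries were left out. The shares of all genes under these and the other settings were 2.61% to 8.76% lower. The median log2 difference of -0.41 was -0.005 when scaled to the members, a value near 0 by construction. It ranged from -0.55 to -0.10 (-0.096, without HG3 replicate 2) with single libraries left out. In PCL12 against HG3 the 3 calls became 1 with library totals, 5 with no filter, 0 without PCL12 replicates 2 and 3, 7 without the 2 mitochondrially rich libraries, 0 when scaled to the members, and 1 to 9 with single libraries left out, 9 without CpG MEC2 replicate 2 (11.7% of the members, beside 4.76% of all genes lower). The 7 calls were 9.09% of the members, beside 5.27% of all genes lower. The median was 0.008 when scaled to the members, again near 0 by construction. This scaling moved the median of all genes to 0.19 and 0.34 in these comparisons. Of 18 fits with 1 library left out, RPS18 was called in 18, RPL26 in 13, RPL14 in 7 and RPS25 in 8 (MEC2) and 4 (PCL12). In MEC2 against PCL12 there were 2 calls without the 2 mitochondrially rich libraries, and the median was -0.19 (-0.191) without PCL12 replicates 2 and 3.

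The numbers of CpG calls were 0 under every alternative run. The paired fit with the replicate block changed no call, with medians of -0.19 in HG3, -0.37 in MEC2 and -0.06 (-0.055) in PCL12. RPL14 with CpG in HG3 turned to 0.028 without the 2 mitochondrially rich libraries and, with single libraries left out, ranged from -0.766 to 0.054, the latter without unstimulated HG3 replicate 2. In PCL12 RPS29 ranged from -0.453 to 0.086, RPS28 from -0.376 to 0.074 and RPL28 from -0.367 to 0.108, the highest each without unstimulated replicate 1, and the difference of RPL41 between MEC2 and HG3 turned to 0.148 in the replicate block without pair 2. The median difference of CpG effects, PCL12 against HG3, ranged from -0.113 (without unstimulated HG3 replicate 2) to 0.311. With mitochondrially encoded genes left out, the members' share in HG3 was 9.945% unstimulated and 8.387% with CpG. It was 7.92% and 6.443% for MEC2, and 7.504% and 7.168% for PCL12. The causes were not tested. With 3 replicates a group, the smallest difference called among the members between lines with all 18 libraries was -0.80 on the log2 scale (RPL26).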
